A study of Mus musculus with 4 samples.

Results

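The genes described here are the Notch receptor genes Notch1, Notch2 and Notch3, the nuclear cofactor genes Rbpj and Maml1, the target genes Hes1, Dtx1 and Nrarp, and the antagonist gene Numb. They were taken by symbol, and all 9 were found among the 50600 genes that each count file lists. The RNA was that of mouse T cells taken as primary cells (strain C57BL/6NJ), in 4 libraries that the labels call biological replicates of a single group with no treatment, age or sex given. The labels point to a differentiation protocol for CD4+ T cells, and names inside the file headers read Th0, activated and 48 hours, a term used for CD4 T cells activated with no polarising cytokine. All 4 replicates carry the same donor identifier, so a p-value here reflects the scatter among these libraries only, which may be technical. Each library is bulk RNA: fewer cells that express a gene and less of its RNA per cell cannot be told apart.

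Notch receptors sit in the cell membrane and are cut when a ligand on a neighbouring cell binds them, first by an ADAM metalloprotease and then by gamma-secretase. The freed intracellular domain enters the nucleus, joins the DNA-binding protein RBPJ and a Mastermind coactivator, and switches on genes such as Hes1, Dtx1 and Nrarp, some of which feed back on the pathway. In the thymus Notch1 commits progenitors to the T lineage, and in mature CD4 T cells Notch1 and Notch2 take part in activation and in the choice of helper fate.

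The libraries held 45110199 to 127755788 read pairs assigned to genes, a 2.83-fold range in depth. A count of 0 allowed up to 0.0235 to 0.0665 CPM, the counts of a gene scaled to library size, taking 3 counts per library as the limit and covering counting error only. The 10 markers of T cells all lay above 1 CPM, with a summed level of 4274 to 4368 CPM, and of the CD8 genes Cd8b1 stood at 9.62 CPM ± 0.749 and Cd8a at 0.279 ± 0.143 (SD, n = 4). Summed levels of markers of other cells were 3.32 to 5.71 CPM for 8 B cell genes, 5.03 to 6.61 for 10 myeloid genes, 4.88 to 7.33 for 7 dendritic cell genes, 1.79 to 2.66 for 6 NK cell genes and at most 0.0527 for 4 erythroid genes. The sum for 8 stromal and endothelial genes, 28.9 to 32.2 CPM, was mostly Pecam1, which T cells can also express, at 26.9 CPM ± 1.52. Of these 8 genes, 2 lay above 1 CPM, 4 below, among them Col1a1 at 0.667 CPM ± 0.136, and 2 had no count, Cdh5 and Col3a1. Among these lists Zbtb46 (5.76 CPM), Pdgfrb (2.90), Cd68 (2.69), Adgre1 (2.60), Eomes (2.34) and Ebf1 (1.53) also lay above 1 CPM, while Lyz2, S100a8, S100a9, Itgax, Clec9a and Cd209a had no count. Their part in the levels below was not tested. Every pair of libraries differed beyond counting noise (chi-square per degree of freedom from 7.78 to 24.2), and each was counted as 1 sample.

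RBPJ binds DNA at sites with the core TGGGAA, and the Hes repressors at N boxes (CACNAG) and E boxes (CACGTG). Windows of 300 bases around the RefSeq start (250 before, 50 after) were available for 8 of the 9 genes in the RefSeq table of GRCm38.p6, the assembly that mm10 names, and Hes1 had no entry. The windows of 4 genes are shown because their RNA levels frame the results: Rbpj, the one gene with TGGGAA in a window, Notch1 as a highly expressed receptor gene, and Nrarp and Dtx1 as targets measured at low levels. Each reads 5′ to 3′ on the gene's own strand, with matches to any of the 3 motifs on either strand in capitals. Their positions are chr5:53590096-53590395 on the plus strand for Rbpj, chr2:26503773-26504072 on the minus strand for Notch1, chr2:25180508-25180807 on the plus strand for Nrarp and chr5:120711620-120711919 on the minus strand for Dtx1. The windows of Rbpj, Notch1 and Dtx1 lie inside the gene spans of the count files, so their starts are not the outermost ones.
Rbpj: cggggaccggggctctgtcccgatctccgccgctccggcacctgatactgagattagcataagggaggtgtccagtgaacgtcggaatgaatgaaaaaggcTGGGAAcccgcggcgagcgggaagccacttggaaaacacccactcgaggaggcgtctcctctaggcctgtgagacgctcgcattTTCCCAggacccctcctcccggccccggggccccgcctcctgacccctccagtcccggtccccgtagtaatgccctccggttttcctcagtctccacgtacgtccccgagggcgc
Notch1: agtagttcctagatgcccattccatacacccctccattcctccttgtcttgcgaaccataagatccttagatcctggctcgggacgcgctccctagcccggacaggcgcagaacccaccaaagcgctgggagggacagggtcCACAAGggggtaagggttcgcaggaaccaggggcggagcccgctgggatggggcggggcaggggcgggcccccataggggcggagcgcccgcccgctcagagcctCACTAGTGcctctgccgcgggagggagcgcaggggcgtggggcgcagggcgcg
Nrarp: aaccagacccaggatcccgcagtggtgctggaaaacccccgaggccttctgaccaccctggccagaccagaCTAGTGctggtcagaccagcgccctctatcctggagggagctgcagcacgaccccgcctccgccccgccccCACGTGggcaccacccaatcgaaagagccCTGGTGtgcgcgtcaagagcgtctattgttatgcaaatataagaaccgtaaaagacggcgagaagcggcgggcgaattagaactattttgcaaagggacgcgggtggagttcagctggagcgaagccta
Dtx1: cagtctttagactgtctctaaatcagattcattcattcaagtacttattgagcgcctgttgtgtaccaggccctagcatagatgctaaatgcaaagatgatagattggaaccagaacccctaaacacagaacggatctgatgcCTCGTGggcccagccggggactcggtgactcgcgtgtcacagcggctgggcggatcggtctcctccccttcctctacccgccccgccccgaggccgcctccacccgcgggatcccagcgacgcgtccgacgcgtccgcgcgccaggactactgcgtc

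The Rbpj window held TGGGAA at bases 102 to 107 on the gene's strand and at bases 186 to 191 on the opposite strand. A second Rbpj window, which overlaps the first, held the latter match again. No window of the other genes held this core, which occurred in 25.6% of the 32851 windows in the table. The N box CACNAG was found in 3 places in the Notch1 window, of which 2 overlapped each other, in 2 places in that of Nrarp and in 1 in that of Dtx1. It also occurred in 2 places in the Notch3 window, in 1 in that of Notch2 and in 1 in a window of Numb. The windows of Rbpj and Maml1 held none. Of all windows in the table, 42.5% held at least 1. Nrarp also held the E box CACGTG at bases 143 to 148, a motif in 7.15% of all windows. A match is a run of letters, and no binding was measured.

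Notch1 and Notch2 were both expressed at high levels, and Notch3 was close to absent. Levels between genes are compared in TPM, which corrects counts for exon length as well as library size. Notch2 (ENSMUSG00000027878.11, chromosome 3, 98013527 to 98150361, mm10) stood at 87.2, 99.2, 96.4 and 99.96 TPM in replicates 1 to 4, a mean of 95.7 TPM ± 5.86 (SD, n = 4). Notch1 (ENSMUSG00000026923.15, chromosome 2, 26457903 to 26516663) stood at 54.9, 60.0, 64.5 and 67.4 TPM, a mean of 61.7 ± 5.46. Their ranges did not overlap, with Notch2 higher in 4 of 4 libraries by a mean log2 difference of 0.63 ± 0.07. With 4 libraries an exact two-sided sign-flip test cannot give a p under 12.5%, so differences between genes are given with their SD and sign and with no call. Notch2 exceeded 85.1% of the protein-coding genes with a count in mean TPM, and Notch1 77.6%.

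Notch3 (ENSMUSG00000038146.7, chromosome 17, 32120820 to 32166880) had 32, 13, 96 and 52 counts, or 0.562, 0.288, 0.751 and 0.974 CPM. Replicate 2 was the lowest and replicate 4 the highest, a 3.38-fold range. The mean of 0.644 CPM ± 0.291 lay below 1 CPM by edgeR's quasi-likelihood test (adjusted p = 0.0197, n = 4). Without replicate 1 or without replicate 2 that call was lost. Notch4, the remaining receptor gene, stood at 0.268 CPM ± 0.188. Of the summed TPM of the 4 receptor genes, Notch2 made up 60.7% ± 1.25 and Notch1 39.1% ± 1.21 (SD, n = 4), against 0.173% ± 0.072 for Notch3 and 0.0717% ± 0.0495 for Notch4. When the longest coding transcript set the gene length, Notch2 made up 51.4% ± 1.30 and Notch1 48.4% ± 1.28. Notch1 exceeded Notch3 by a log2 difference of 7.43 ± 0.45 and Notch2 exceeded it by 8.06 ± 0.52 on the log2(TPM + 0.1) scale, each in 4 of 4 libraries. The 3 protein-coding genes nearest to Notch1 in level over the 4 libraries were Mast3, Safb2 and Nudt2. Their root mean square differences in log2(TPM + 0.1) were 0.037, 0.051 and 0.051. Among 15076 protein-coding genes such near levels are easily found, and shared regulation was not tested.

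**Figure D1:**
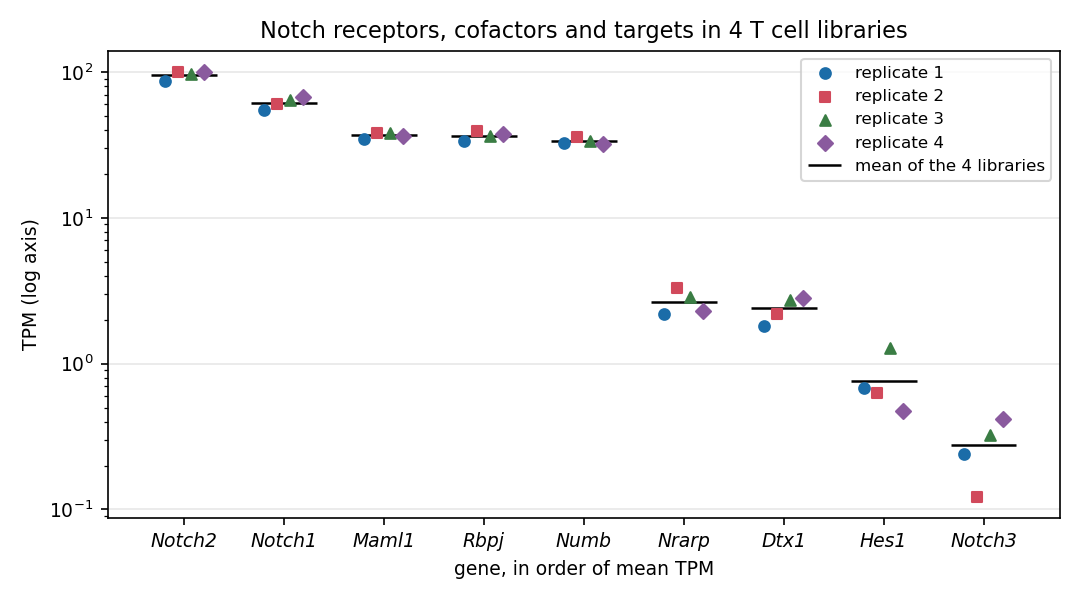
TPM on a log axis of each of the 9 genes in each of the 4 libraries (symbols) with the mean (line), in order of mean TPM. Notch2, Notch1, Maml1, Rbpj and Numb form an upper group with means of 33.5 TPM or more, and Nrarp, Dtx1, Hes1 and Notch3 a lower group with means of at most 2.66 TPM.

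The nuclear cofactors of the receptors were expressed at levels below those of Notch1 when all annotated exons set the gene length. Rbpj (ENSMUSG00000039191.12, chromosome 5, 53466152 to 53657362), the DNA-binding partner of cleaved Notch, stood at 33.8, 39.2, 36.3 and 37.3 TPM, a mean of 36.6 ± 2.23 (SD, n = 4). Maml1 (ENSMUSG00000050567.16, chromosome 11, 50255634 to 50292311), which bridges that complex to histone acetyltransferases, stood at 34.5, 38.2, 38.0 and 36.1 TPM, a mean of 36.7 ± 1.74. Their ranges overlapped, each was higher in 2 of 4 libraries, and the log2 difference of Maml1 over Rbpj was 0.00 ± 0.05. Maml1 exceeded its paralog Maml2 by a log2 difference of 0.55 ± 0.02 in 4 of 4 libraries, and Maml3 by 3.82 ± 0.22. It made up 57.1% ± 0.496 of the summed TPM of the Mastermind family, Maml2 39.0% ± 0.366 and Maml3 3.94% ± 0.589. Rbpjl, the paralog of Rbpj, had no count in any library.

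The place of Rbpj in this order depended on the length used. Its annotated exons add up to 12750 bases, while its longest coding transcript in GENCODE M21 has 5485. The corresponding lengths were 14232 and 9488 bases for Notch1, 10782 and 10500 for Notch2, and 5528 under both for Maml1. With transcript lengths, an alternative chosen after seeing the data, Rbpj stood at 62.0 TPM ± 3.89, Notch1 at 67.4 ± 6.11, Notch2 at 71.5 ± 4.55 and Maml1 at 26.7 ± 1.34 (SD, n = 4). Rbpj then exceeded Maml1 by a log2 difference of 1.21 ± 0.05, the excess of Notch2 over Notch1 fell to 0.09 ± 0.07, and that of Notch1 over Rbpj was 0.12 ± 0.11 against 0.75 ± 0.11 with exon lengths. Which transcripts the cells used was not measured. A processed copy of Rbpj, Rbpj-ps3, matched 1441 bases of that transcript at 99.7% identity and was given 117 to 295 counts per library against 6583 to 17021 for Rbpj. The command in the file headers does not ask for reads that map to several places, so the Rbpj count may leave some out, and its level is uncertain to that extent. Nor does that command ask for reads that overlap several genes. Gm42820, on the same strand as Notch2, shares 541 bases or 5.02% of the Notch2 exons, so the Notch2 count may also leave some out.

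**Figure D2:**
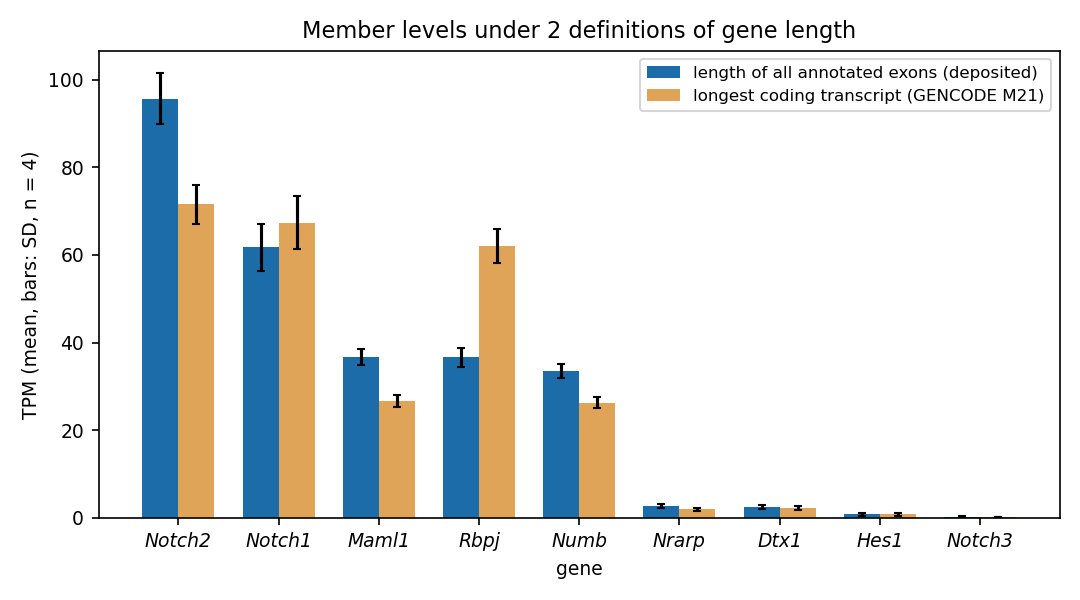
Mean TPM (bars, error bars SD, n = 4) of the 9 genes with the deposited exon length (blue) and with the longest coding transcript (orange). Rbpj moves from 36.6 to 62.0 TPM and Notch2 from 95.7 to 71.5, while Notch1 stays at 61.7 and 67.4.

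Numb (ENSMUSG00000021224.14, chromosome 12, 83794034 to 83921934), an endocytic adaptor that opposes Notch signalling, was expressed at a steady level. It stood at 32.7, 35.7, 33.7 and 32.0 TPM, a mean of 33.5 ± 1.60 (SD, n = 4), with replicate 2 the highest. It lay just under Rbpj in 4 of 4 libraries by a log2 difference of 0.13 ± 0.07, though the ranges over libraries overlapped. With transcript lengths Numb stood at 26.3 TPM ± 1.29 and the difference was 1.23 ± 0.07. Its relative Numbl stood at 0.681 TPM ± 0.0578 with exon lengths, so that Numb made up 98.0% ± 0.227 of the summed TPM of this gene pair. The share was 94.4% ± 0.618 with transcript lengths.

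**Figure D3:**
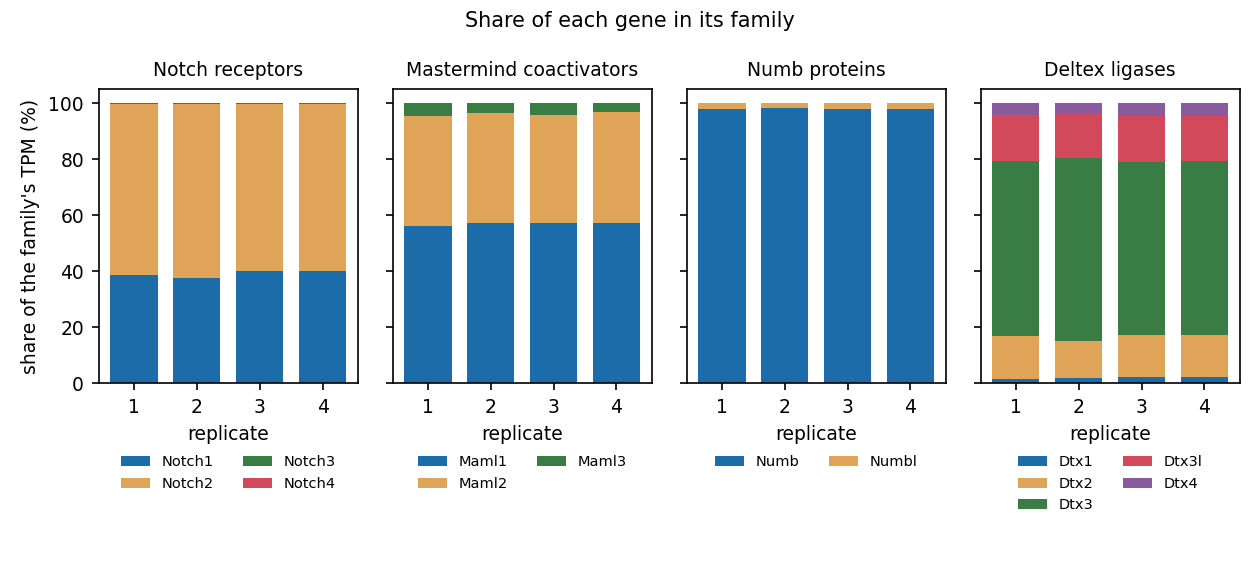
Share of each gene in the summed TPM of its family (stacked bars, percent) in replicates 1 to 4. Notch2 and Notch1 fill the receptor bars, Maml1 and Maml2 most of the Mastermind bars, Numb 98.0% of its own, and Dtx3 62.9% of the Deltex bars. The bars use exon lengths, and Dtx3 made up 56.1% with transcript lengths.

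The 3 target genes were far lower than Notch1, Notch2, the cofactors and Numb, though above Notch3 in mean TPM. The step from Numb to Nrarp was the widest between neighbours in the order of mean TPM, at 12.6-fold and a log2 difference of 3.62 ± 0.20 (SD, n = 4), higher for Numb in 4 of 4 libraries. Nrarp (ENSMUSG00000078202.3, chromosome 2, 25180758 to 25183339), a small ankyrin repeat protein that binds the Notch complex and restrains it, had 95, 113, 270 and 92 counts. These correspond to 2.20, 3.32, 2.84 and 2.29 TPM, a mean of 2.66 ± 0.521, with replicate 2 the highest. An antisense gene without a count, Gm38287, covers 79.4% of the exon bases of Nrarp, and the headers state strand-specific counting. Dtx1 (ENSMUSG00000029603.15, chromosome 5, 120680202 to 120711927), a Deltex ubiquitin ligase that acts on Notch, stood at 1.82, 2.20, 2.73 and 2.83 TPM, a mean of 2.39 ± 0.472. Nrarp and Dtx1 overlapped, with Nrarp higher in 3 of 4 libraries and a log2 difference of 0.15 ± 0.36. The direction turned with transcript lengths, to -0.22 ± 0.36, and in CPM, to -0.84 ± 0.36.

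Hes1 (ENSMUSG00000022528.7, chromosome 16, 30064384 to 30067796), a basic helix-loop-helix repressor and the best known Notch target, had 23, 17, 96 and 15 counts. Its levels were 0.676, 0.633, 1.28 and 0.473 TPM, a mean of 0.766 ± 0.355 (SD, n = 4), with replicate 3, the deepest library, above the other three. In CPM the mean was 0.453 ± 0.206, below 1 CPM by edgeR's quasi-likelihood test (adjusted p = 0.000473). Against a threshold of 1 TPM that call was lost (adjusted p = 0.254, edgeR). Hes1 was lower than Dtx1 in 4 of 4 libraries, by a log2 difference of 1.59 ± 0.57. It exceeded Notch3 by 1.19 ± 0.73 in TPM, but without length correction Notch3 was the higher on average.

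Of the 6 other Hes and Hey genes listed here as canonical targets, 5 lay below 1 CPM, and Hes7, Hey2 and Heyl were near the limit of detection. Hes5 stood at 0.823 TPM ± 0.144 (SD, n = 4) and was not separated from Hes1, which was higher in 1 of 4 libraries by this scale. Hey1 averaged 0.262 TPM, Hes7 0.0585, Heyl 0.0279 and Hey2 0.0239, with 78, 7, 12 and 11 counts in all. Hes6 stood at 37.4 TPM (19.7 CPM ± 0.726), and its product is known to act against Hes1. Of the 9 genes on this list, the 3 described members included, 3 lay above 1 CPM (Hes6, Dtx1 and Nrarp) and 6 below. Hes6 made up 84.2% ± 1.73 of their summed TPM, which was 44.4 with Hes6 and 7.02 without it. Whether Notch drives Hes6 in these cells was not tested, so its level is not read as that of a target. Of the other Deltex genes, Dtx3 stood at 72.4 TPM ± 5.26, Dtx2 at 16.7 ± 0.822 and Dtx4 at 5.02 ± 0.593. Dtx1 made up 2.07% ± 0.353 of the summed TPM of the Deltex family and was the lowest of its 5 genes in 4 of 4 libraries.

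Across the 9 genes, 7 lay above 1 CPM and 2 below by the quasi-likelihood test. Over all 23365 genes with a count, 48.0% lay above and 48.5% below, and over the 15076 protein-coding ones 70.1% and 26.9%. The share of the 9 above the threshold is thus near that of protein-coding genes at large. Their median was 33.5 TPM, against 14.2 TPM for protein-coding genes with a count. The 7 genes above were Notch2, Notch1, Rbpj, Maml1, Numb, Dtx1 and Nrarp, from 300.5 CPM ± 17.8 for Notch2 to 2.00 CPM ± 0.389 for Nrarp (SD, n = 4, adjusted p = 2.93e-12 for Nrarp, edgeR). The 2 below, Hes1 and Notch3, rested on 151 and 193 counts over the 4 libraries.

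Of the 73 other genes on the pathway list, 55 lay above 1 CPM, 17 below and 1 had no count. For scale, 70.1% of the protein-coding genes with a count lay above and 26.9% below. The counts by role include the described genes. Of the 7 ligand genes, 2 lay above, Jag2 at 3.56 TPM ± 0.609 and Dlk2, a noncanonical relative, at 2.74 ± 0.498 (SD, n = 4). Dll1, Dll3, Dll4, Jag1 and Dlk1 lay below, with 3, 42, 5, 25 and 87 counts in all. All 5 genes that add or extend sugars on the receptors lay above, led by the Fringe genes Mfng at 98.4 TPM ± 4.23 and Lfng at 81.3 ± 4.28, with Mfng higher in 4 of 4 libraries, and by Rfng at 45.3 ± 5.66. Of 10 genes of receptor cleavage 9 lay above, among them Adam10, the protease of the first ligand-induced cut, at 192 TPM ± 5.55, Adam17 at 57.3 ± 0.792 and Furin, which processes the receptor precursor, at 117 ± 8.29. The gamma-secretase subunit genes Ncstn and Aph1a stood at 120.0 TPM ± 3.59 and 47.2 ± 1.86. The Aph1a paralogs Aph1b and Aph1c are close copies of one another, so that their counts of 405 and 38 in all are uncertain.

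Among the 10 genes of the nuclear complex, 9 lay above 1 CPM and Rbpjl had no count. The cofactor gene Snw1 stood at 193 TPM ± 5.97 and the acetyltransferase genes Kat2a, Ep300, Crebbp and Kat2b at 93.6, 44.1, 22.8 and 15.6 TPM. Of 13 corepressor genes 11 lay above, led by Ctbp1 at 193 TPM ± 4.79, Ncor1 at 97.0 ± 3.37 and Tle3 at 81.0 ± 3.21. All 11 genes of receptor turnover lay above, Numb included, with Dtx3 the highest and Itch, a ligase that marks Notch for degradation, at 31.2 TPM ± 0.768. Of 4 ligand ubiquitination genes 3 lay above, with Mib2 at 44.9 TPM ± 5.96, Mib1 at 32.8 ± 1.91 and Neurl1b at 0.837 ± 0.192. In all, 62 of the 82 pathway genes lay above 1 CPM, 19 below and 1 had no count, against 70.1% above among protein-coding genes with a count. The median TPM was 0.164 for the ligands and 0.766 for the canonical targets, against 63.1 for receptor cleavage and 30.9 for the nuclear complex. It was 14.2 over protein-coding genes with a count and 1.80 over all genes tested, noncoding ones included.

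**Figure D4:**
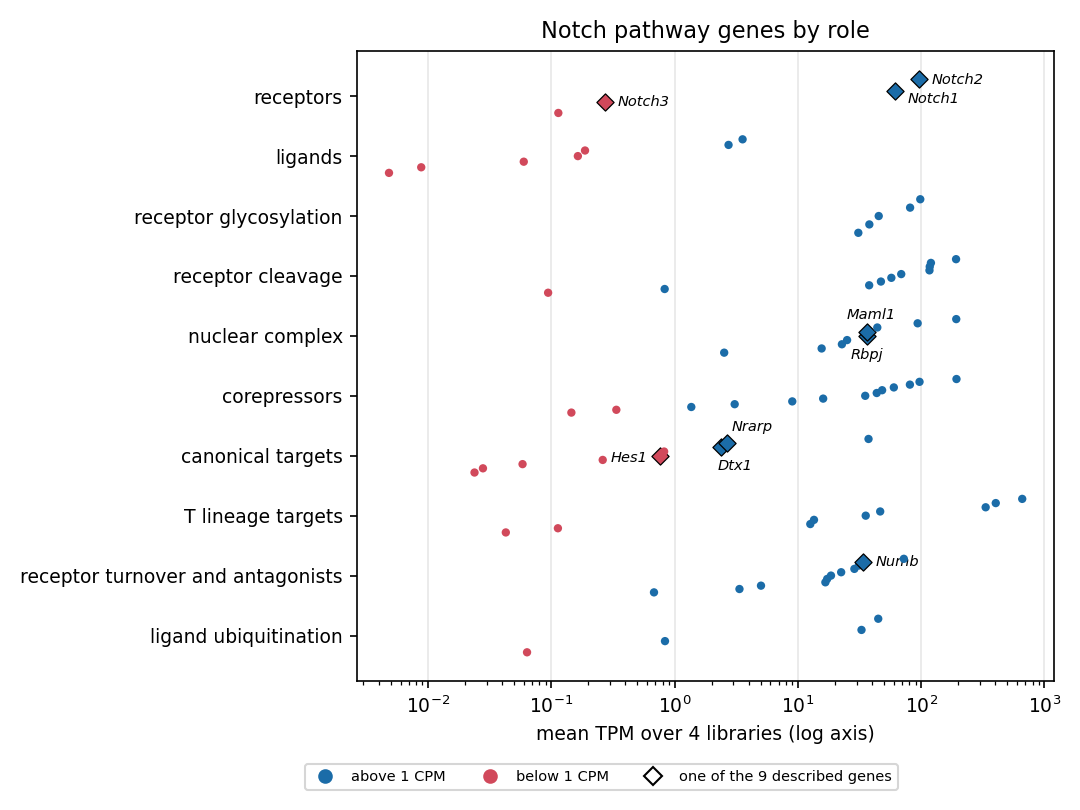
Mean TPM over the 4 libraries (log axis) of the pathway genes, by role, with the 9 described genes as diamonds; Rbpjl, which had no count, is not drawn. Blue points lie above 1 CPM and red points below. Red points are most frequent among the ligands (5 of 7) and the canonical targets (6 of 9), against 26.9% of protein-coding genes with a count.

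The spread of the 9 genes between replicates was smallest in the abundant ones and widest in those with few counts. None of them was called more variable than genes of like abundance by edgeR's goodness-of-fit test (adjusted p = 0.865 for Notch3 and 1 for the other 8). By the same test 0 passed at an unadjusted p below 0.05, with Notch3 nearest at 0.0509. Over the 13279 genes tested, 0.422% were called variable and 770 had an unadjusted p below 0.05. Mib2 of the pathway list was among those called variable (adjusted p = 0.049, edgeR's goodness-of-fit test). With 1 common dispersion for all genes in place of the trend, Hes1 and Notch3 were called (adjusted p = 0.0150 and 0.0116). The coefficient of variation of CPM was 4.28% for Maml1, 4.80% for Numb, 5.93% for Notch2, 6.07% for Rbpj and 8.44% for Notch1. It was 19.2% for Dtx1, 19.4% for Nrarp, 45.2% for Notch3 and 45.4% for Hes1, the genes with the fewest counts.

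Replicate 1 was the lowest library for 6 of the 7 genes above 1 CPM, all but Numb. For Notch1 it stood at 229 CPM against 249, 264 and 280.0 in replicates 2, 3 and 4, and for Notch2 at 276 against 312, 299 and 315. For Dtx1 it stood at 2.81 CPM against 3.39, 4.14 and 4.35. Among all 11226 genes above 1 CPM, replicate 1 was the lowest for 27.8%. The share moved with gene length: it was 38.1% of the 4400 genes with exons of 5000 bases or more and 13.3% of the 1801 genes with exons under 2000 bases. Notch1, Notch2, Rbpj, Maml1 and Dtx1 all have exons above 5000 bases, and the part of length in their order over libraries was not tested.

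**Figure D5:**
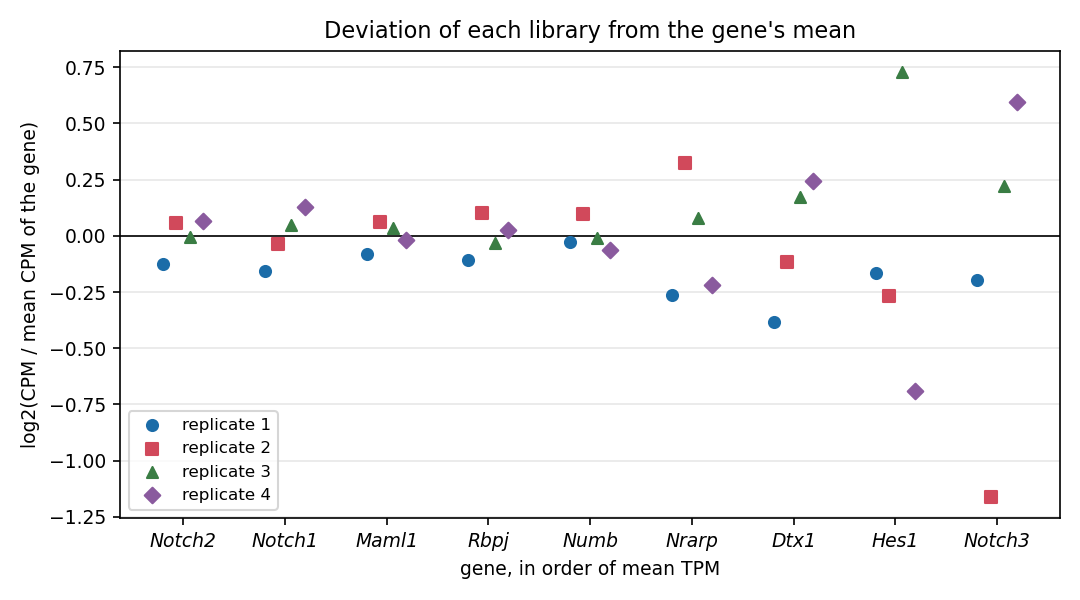
log2 of each library's CPM over the gene's mean CPM for the 9 genes, by replicate. Replicate 1 lies under the line for every gene, the 5 genes of the upper group stay close to it, and Hes1 (high in replicate 3) and Notch3 (low in replicate 2) spread most.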

How the data were processed

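Gene-level RNA-seq counts of 4 mouse T cell libraries, all of 1 group, were used. The authors deposited unnormalized gene counts: per the file headers, featureCounts 1.4.6-p4 counted fragments with both ends mapped on GENCODE M13 exons, with strand option 2, in STAR alignments (version not given in the sources used). The assembly is mm10 per the labels, and the headers carry the summed exon length of each gene. The assay label is total RNA-seq, but the title of the protocol it links speaks of polyadenylated RNA. Symbols were matched for 50376 of 50600 genes. Counts were scaled to CPM and, with the exon lengths, to TPM.

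Each gene's level was tested against 1 CPM over the 23365 genes with a count in any library. An intercept-only quasi-likelihood model was fitted with edgeR 4.0.16, its offset set so that the intercept is the log ratio to 1 CPM, and a two-sided F test was built from its deviances. Benjamini-Hochberg adjusted p below 0.05 was the threshold. Variability was tested by edgeR's goodness of fit at the trended dispersion on the 13279 genes that pass filterByExpr, after TMM normalization (factors from 0.9957 to 1.002). Both tests were tested on simulated data. Differences between genes were taken within each library on log2(TPM + 0.1). limma 3.58.1, DESeq2 1.42.0, R 4.3.3, python 3.11.15 and blastn 2.17.0 (at least 95% identity over 10% of a transcript) were also used. The rule for naming genes allows the 9 genes, every receptor, ligand, nuclear complex and canonical target gene, the genes of 25 pairs, the 3 highest in TPM of each other role, the 2 highest of each marker list, 3 genes nearest to Notch1, and overlapping or near-identical genes; the other markers and ligases named were chosen after their values were seen. The genes and lists were chosen with earlier results of these data known.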

Additional observations from a re-analysis of the deposited data

How the results depend on the processing

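The count of genes above 1 CPM among the 9 was 6 to 7 under every alternative run, and that below was 2 except at 1 under a threshold of 1 TPM and 1 to 2 with one replicate left out (Notch3 lost its call without replicate 1 or 2, and Hes1 at 1 TPM). At a threshold of 2 CPM Nrarp, at 2.00 CPM, lay a fraction under the threshold (adjusted p = 0.996). With filterByExpr, which tests fewer genes, 4 pathway genes and 1290 genes in all lay below 1 CPM, against 19 and 11337. Hes1 and Notch3, 2 of the 9, were variable at the common dispersion, as were 873 genes in all against 56 at the trend, and 33 to 40 genes with one replicate left out, which has fewer samples; the cause at the common dispersion was not tested. The log2 difference of Hes1 over Notch3 turned to -0.40 in CPM, which lacks the length correction. Differences smaller than their SD also changed sign: Nrarp over Dtx1 to -0.84 in CPM and -0.22 with transcript lengths, Hes1 over Hes5 from -0.16 to 0.32 in CPM, 0.17 with transcript lengths and 0.08 without replicate 4, and Maml1 over Rbpj to -1.20 in CPM, -1.21 with transcript lengths, and -0.0059 and -0.018 without replicate 1 and replicate 3. No paired analysis was possible because there is 1 group. The levels of genes with few counts (Hes1, Notch3, Hey1, Jag1) are uncertain. With all libraries thinned to the smallest, Hes1 and Notch3 stayed below 1 CPM (adjusted p = 0.00162 and 0.0389, edgeR). The part of depth in their spread was not tested.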

Other observations

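Of 9 genes that Notch is known to regulate in developing T cells, 7 lay above 1 CPM, a share near the 70.1% of protein-coding genes. The 3 highest were Myc, a growth regulator, at 660.0 TPM ± 31.5, Tcf7, a transcription factor of the T lineage, at 403 ± 14.0, and Il2ra, a chain of the interleukin receptor induced by activation, at 333.5 ± 17.7 (SD, n = 4). Ptcra and Ccnd1, chosen after their values were seen, lay below 1 CPM. Ptcra, the surrogate alpha chain gene of the receptor of immature thymocytes, had 4 counts in all and Ccnd1, a cyclin gene, 51. Many other inputs control the genes of this group, and Notch activity was not measured.

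In each of the 9 described genes the 4 libraries were also examined for a single one set apart from the rest (Dixon's test at its 95% critical value), and none was. Over the 82 pathway genes 5 had such a library, where chance gives about 1 in 20 groups of normally distributed values. Dll1, Dll4 and Ptcra, with 3, 5 and 4 counts in all, do not meet that condition, and Rbpjl had no count. No conclusion is therefore drawn from this number.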
